A study of Mus musculus with 6 samples.

Results

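Small RNAs of 15 to 36 nt were compared between 1 library of Dnmt3l knockout (KO) and 1 library of wild-type (WT) C57BL/6 germ cells, both enriched from the testes of newborn mice at postnatal day 0 (P0). The deposited table gives read counts for 1272548 genomic intervals, which overlap heavily and carry no gene or repeat name. Intervals sharing a base were merged into 99491 regions, and each region was represented by its 1 interval with the largest sum of reads over all 6 libraries of the series. The 11656 regions with at least 100 reads over both P0 libraries are described here, 11.7% of all regions, and they held 91.5% of the WT and 91.8% of the KO reads of the representative intervals. The other 4 libraries, 2 WT and 2 KO, came from THY1+ spermatogonial cells of 8-day-old testes (P8), a stem and progenitor fraction, and they serve as a measure of replicate spread and as separate libraries. The labels name no Cre, promoter, clone or pool for the knockout, and they do not say how many animals went into a library.

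DNMT3L has no methyltransferase activity of its own but binds the enzymes that set new DNA methylation, and it is needed for the methylation of transposons and imprinted loci in male germ cells before birth. piRNAs are small RNAs bound by PIWI proteins, and in fetal and newborn male germ cells they are made from transposons, genes and intergenic loci. There they guide both the cutting of transposon transcripts and the methylation of transposon DNA. The size range sequenced also takes in microRNAs and fragments of longer RNAs. The table does not separate these kinds, and intervals were not matched to genes, microRNAs or germ cell markers, because the annotation at hand is of another genome build (GRCm38) than the table (GRCm39). The labelled cell type was therefore not checked against markers. In such bulk samples, fewer cells of a type and less RNA per cell cannot be told apart.

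The representative intervals held 5409232 (WT) and 3930406 (KO) P0 reads, and 4429710 to 5549944 reads in the P8 libraries. The labels put all 6 in 1 batch. Levels are given as CPM (reads per 1000000), scaled with edgeR's TMM factors (trimmed mean of M-values), computed from all 6 libraries. With 1 library per genotype the P0 differences have no replicate check, so each ratio carries an exact conditional binomial 95% interval. It covers counting error only, and reads need not be independent molecules. These ratios compare 2 libraries, not the genotypes. A region was counted as higher or lower when its ratio passed 2-fold and this interval excluded 1. The interval excluded 1 at every region past 2-fold, so this second condition removed none. Of the 11656 regions, 1095 were higher in KO (9.39%) and 702 were lower (6.02%). The median log2 ratio was -0.20, with quartiles at -0.55 and 0.26. The counting interval included 1 at 4561 regions (39.1%).

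The split depended on the scaling. With TMM factors from the P0 pair alone, 1271 regions were higher and 483 lower. Higher regions then made up 72.5% of those past 2-fold instead of 60.9%, and the median log2 ratio was -0.09 instead of -0.20. DESeq2 size factors gave 1302 higher and 465 lower, a share of 73.7%, and a median of -0.07. Median log2 ratios just inside and just outside the limit of 100 reads were alike. They were -0.12 at 582 regions with 100 to 109 reads and -0.17 at 727 regions with 90 to 99 reads. The balance of counted regions differed, with 51 higher and 43 lower inside and 44 higher and 58 lower outside.

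The P0 libraries differed far more than libraries of 1 genotype at P8. Past 2-fold lay 15.4% of the regions between KO and WT at P0. Between the WT P8 replicates it was 0.748% of 8426 regions with at least 100 reads over the pair, and between the KO P8 replicates 0.619% of 7758 regions. The interquartile range of log2 ratios was 0.81 at P0 and 0.26 and 0.28 in the WT and KO replicate pairs. With 1 P0 library per genotype analysed here, the spread between preparations at P0 is unknown.

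**Figure D1:**
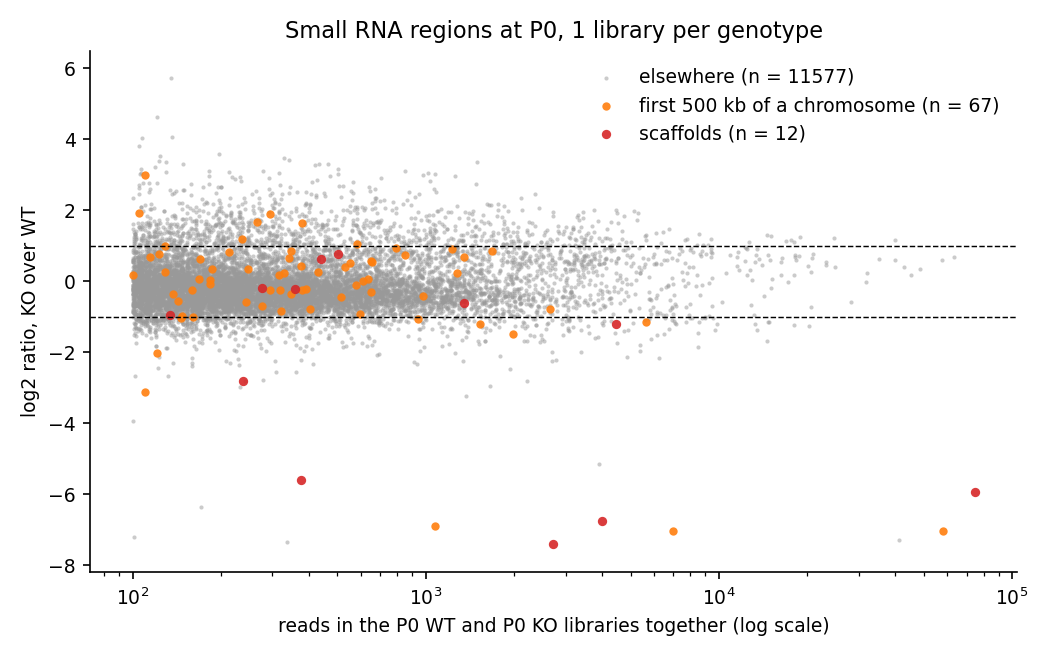
Each point is 1 of the 11656 regions at P0, placed by its reads in both P0 libraries (log scale) and its log2 ratio of KO over WT, with 0.5 reads added to each count, and dashed lines mark 2-fold. Most regions lie between the lines, and the group far below them includes regions on scaffolds (red) and in the first 500 kb of chromosomes (orange).

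The spread was widest in the most abundant regions. In the lowest class, 100 to below 200 reads, the interquartile range of log2 ratios was 0.79 and 14.8% passed 2-fold. In regions with 200 to below 500 reads it was 0.69, and 13.1% passed. It was 1.30 in the 541 regions with 2000 to below 5000 reads and 1.47 in the 211 regions with 5000 reads and over, where 28.3% and 30.8% passed 2-fold. In the replicate pairs the range narrowed, from 0.37 to 0.11 in WT and from 0.42 to 0.12 in KO between the lowest and the highest class. The median counting interval reached 1.44-fold to either side at 100 to below 200 reads and 1.05-fold at 5000 reads and over, so counting error is small against the ratios of abundant regions.

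**Figure D2:**
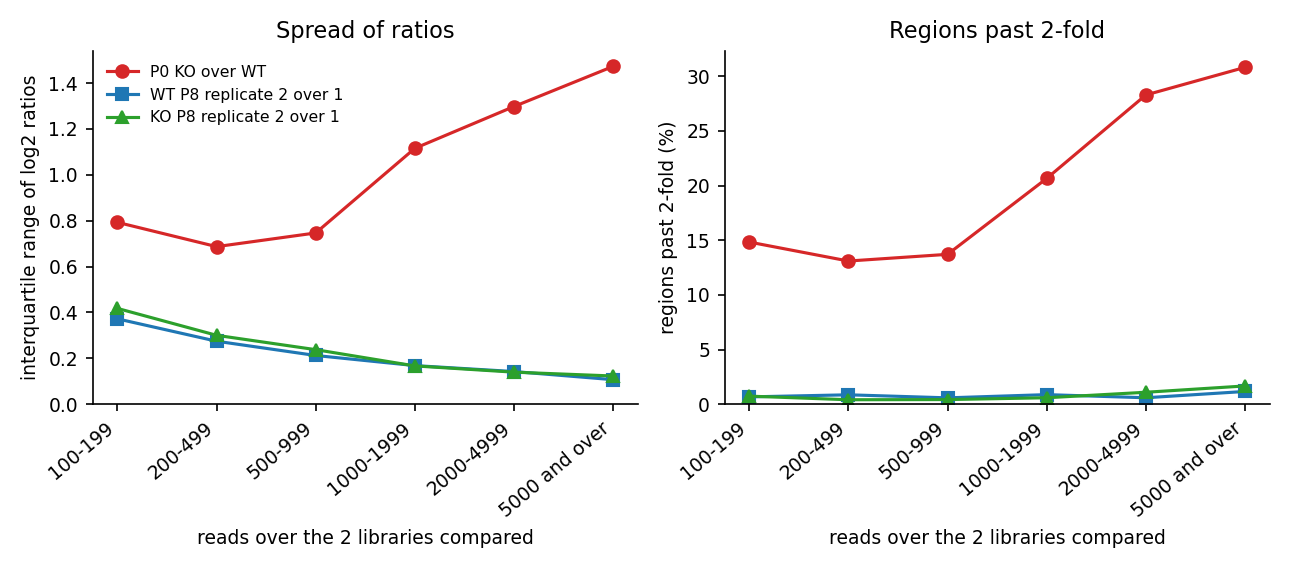
The left panel shows the interquartile range of log2 ratios and the right panel the percentage of regions past 2-fold, by reads over the 2 libraries compared, for KO over WT at P0 and for the P8 replicate pairs. From the second class on, the P0 line goes from 0.69 to 1.47 and from 13.1% to 30.8%, while the interquartile ranges of both replicate pairs narrow. Their share past 2-fold goes from 0.857% to 1.16% in WT and from 0.405% to 1.67% in KO over those classes.

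Among the 211 regions with 5000 reads and over, the ratios were spread over both sides of equality. In steps of 0.5 on the log2 scale, 27 regions lay from -1.5 to -1, 29 from -1 to -0.5, 22 from -0.5 to 0, 38 from 0 to 0.5, 57 from 0.5 to 1 and 24 from 1 to 1.5. Past 2-fold in this class lay 27 higher and 38 lower regions. With TMM factors from the P0 pair alone, and with DESeq2 size factors, these became 37 and 29, so the scaling sets the direction of this balance. The median log2 ratio was 0.25 in this class and 0.19 in that of 2000 to below 5000 reads, against -0.26 to -0.16 in the classes with fewer reads.

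Of the 10 regions with most reads, 6 were moderately higher in KO, 1 was higher by more than 2-fold and 3 were at least 61.3-fold lower. The region at chr10:83212616-83234021, which spans 21.4 kb, stood at 3924 CPM (WT) and 6332 CPM (KO), a ratio of 1.61 (1.59 to 1.64). Its P8 levels were 11066 ± 62.1 (WT) and 11515 ± 250.2 CPM (KO; SD, n = 2 each). The log2 fold change was 0.06, with an adjusted p of 0.245 in edgeR's quasi-likelihood test. Ratios were 1.51 (1.48 to 1.53) at chr5:44260662-44315417, 1.53 at chr6:47714103-47767489 and 1.29 (1.26 to 1.31) at chr15:82227268-82262323. The level at chr3:51130676-51159683 was 2933 (WT) and 3901 CPM (KO) at P0, a ratio of 1.33 (1.31 to 1.36). There the P8 levels were 10680 ± 499.2 (WT) and 46962 ± 1936 CPM (KO; SD, n = 2 each). The log2 fold change was 2.14 ± 0.04 (SE, edgeR adjusted p 3.54e-10). The ratio at chr19:8700853-8703665 was 1.14 (1.12 to 1.16). The region past 2-fold, chr2:128794849-128812151, stood at 2037 (WT) and 4578 CPM (KO) at P0, a ratio of 2.25 (2.20 to 2.29). Its P8 levels were 579 ± 37.5 (WT) and 4246 ± 559 CPM (KO; SD, n = 2 each). The log2 fold change was 2.87 ± 0.09 (SE, edgeR adjusted p 2.17e-09).

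Ratios at the far ends were uneven. In KO, 13 regions were at least 16-fold lower, and the next lowest region was 9.47-fold lower. At least 16-fold higher were 4 regions, which held 27 reads in WT and 473 reads in KO in all. The 13 lower regions held 192041 reads in WT and 1539 in KO, which is 3.88% and 0.0426% of the reads in the regions described. Scaffolds held 4 of these 13, and 3 began less than 500 kb from where their chromosome's intervals start. How reads with several matches were placed is not given in the sources used here, so regions of repeated sequence may share reads and need not be separate loci.

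The interval at chr9:3000001-3038402, at the start of its chromosome, stood at 7750 (WT) and 59.3 CPM (KO) at P0, 131-fold lower (117 to 146). In the P8 libraries levels were 214 and 205 CPM (WT) against 3.48 and 2.68 CPM (KO), a log2 fold change of -6.07 ± 0.16 (SE, edgeR adjusted p 1.00e-09). At chr2:98492576-98497677, 5483 CPM in WT stood against 35.0 CPM in KO, 156-fold lower (136 to 182). At the scaffold interval chrUn_JH584304v1:56548-114452, the region with most reads of all, 9871 CPM in WT stood against 161 CPM in KO, 61.3-fold lower (57.3 to 65.6). Another region of that scaffold, chrUn_JH584304v1:22337-51988, had 457 and 198 CPM at P0, 2.31-fold lower, and was higher in KO at P8 (log2 fold change 1.64, edgeR adjusted p 4.44e-07). These regions of 1 scaffold moved in opposite directions at P8.

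Further regions at least 16-fold lower were chr14:3050005-3054056, 132-fold lower (95.7 to 186), and chr12:3159784-3160207, 129-fold lower (58.9 to 351). The scaffold regions chrUn_GL456392v1:16909-23626 and chrUn_GL456389v1:10461-10878 were 178-fold (99.1 to 356) and 109-fold (74.5 to 168) lower. Both KO P8 libraries had 0 reads at chrUn_GL456392v1:16909-23626, against 49 and 43 in WT, at least 24.7-fold lower against a floor of 3 reads over the group. At chr12:3159784-3160207 they had 0 against 29 and 12. Of the 13 regions, 8 had enough reads for the P8 test and 7 of these were lower in KO there, where 21.6% of the 17904 regions tested were called lower and 23.6% higher. The remaining 1, chr9:35216470-35275831, stood at 512 (WT) and 14.4 CPM (KO) at P0, 35.7-fold lower (28.5 to 45.3). Its P8 levels were 18.2 and 17.5 CPM (WT) and 24.1 and 23.6 CPM (KO; log2 fold change 0.42, edgeR adjusted p 0.0537).

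The regions that were not tested at P8 had few reads there. The interval at chr13:77586939-77587257 had 335 P0 reads in WT against 1 in KO, 241-fold lower (42.9 to 9538), and 9, 7, 0 and 0 reads in the WT and KO P8 libraries. The interval at chr8:23585426-23585833 had 170 P0 reads in WT against 1 in KO, 122-fold lower (21.6 to 4854). At chr12:67106104-67106292 the P0 reads were 101 (WT) and 0 (KO), at least 24.2-fold lower. Ratios at chrUn_GL456396v1:6401-12219 and chr17:18833862-18837345 were 53.2-fold (22.6 to 165) and 17.2-fold (6.52 to 64.6) lower, from 370 and 5 reads and from 96 and 4 reads.

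The largest ratios in the other direction came from regions with few WT reads. At chr12:12384184-12384544 the P0 reads were 3 (WT) and 132 (KO), 61.2-fold higher (20.5 to 301), and the WT and KO P8 libraries had 0, 4, 5 and 0 reads. The next regions with fewer than 1000 reads, at chr4:54651288-54654299, chr6:23481630-23482084, chr4:5716249-5724978 and chr14:23063955-23066821, were 26.7-fold, 17.5-fold, 17.4-fold and 14.8-fold higher, from 6 to 10 reads in WT. None of these 5 had enough reads for the P8 test.

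The region at chr12:108030623-108045563 had the highest ratio among those with at least 1000 reads, 23.6 (WT) and 246 CPM (KO), 10.4-fold higher (8.89 to 12.3). Its P8 levels were 1.37 ± 0.982 (WT) and 16.1 ± 0.392 CPM (KO; SD, n = 2 each). The log2 fold change was 3.49 (edgeR adjusted p 1.76e-05). Ratios were 8.36 at chr18:47779562-47785700, 8.12 (6.85 to 9.68) at chr3:132339538-132347563 and 7.88 (6.74 to 9.24) at chr14:80061853-80077504. These were also higher in KO at P8, with log2 fold changes of 2.51, 3.23 and 3.08. The region at chr3:86054828-86057043 went the other way at P8. It stood at 22.5 (WT) and 162 CPM (KO) at P0, 7.19-fold higher (6.09 to 8.53). Its P8 levels were 47.4 ± 0.00346 (WT) and 24.1 ± 0.360 CPM (KO; SD, n = 2 each). The log2 fold change was -0.97 (edgeR adjusted p 0.00012).

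Locus type, read from the intervals themselves, went with the ratios. A merged region made of a single interval stands alone in the table, whereas others pile up to 1275 overlapping intervals. Among the 745 single-interval regions, 203 passed 2-fold upward in KO (27.2%) and 53 downward (7.11%), and the median log2 ratio was 0.31. The 2229 regions of 2 to 10 intervals had 14.7% higher and 7.49% lower, and the 6482 regions of 11 to 100 intervals had 7.34% and 5.82%. Of the 2200 regions of over 100 intervals, 88 were higher (4.00%) and 105 lower (4.77%), with a median log2 ratio of -0.28, and this balance turned to 104 and 65 with TMM factors from the P0 pair alone. The difference in medians between the first and the last class was 0.59, while the same difference was at most 0.03 in either P8 replicate pair.

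Length showed the same order. Intervals up to 1 kb were higher at 136 of 420 regions (32.4%) and lower at 36 (8.57%), with a median log2 ratio of 0.42. At 1 to 5 kb, 15.3% were higher, at 5 to 20 kb 9.13% and over 20 kb 6.37%. Single intervals up to 1 kb had the highest share, with 104 of 247 regions at least 2-fold higher (42.1%), 15 lower and a median log2 ratio of 0.74. In regions of 200 to below 1000 reads alone, the share higher was 25.8% for single intervals and 2.47% for regions of over 100 intervals. The shares lower were 4.97% and 2.96%. The order of the higher shares was thus also present at matched abundance.

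**Figure D3:**
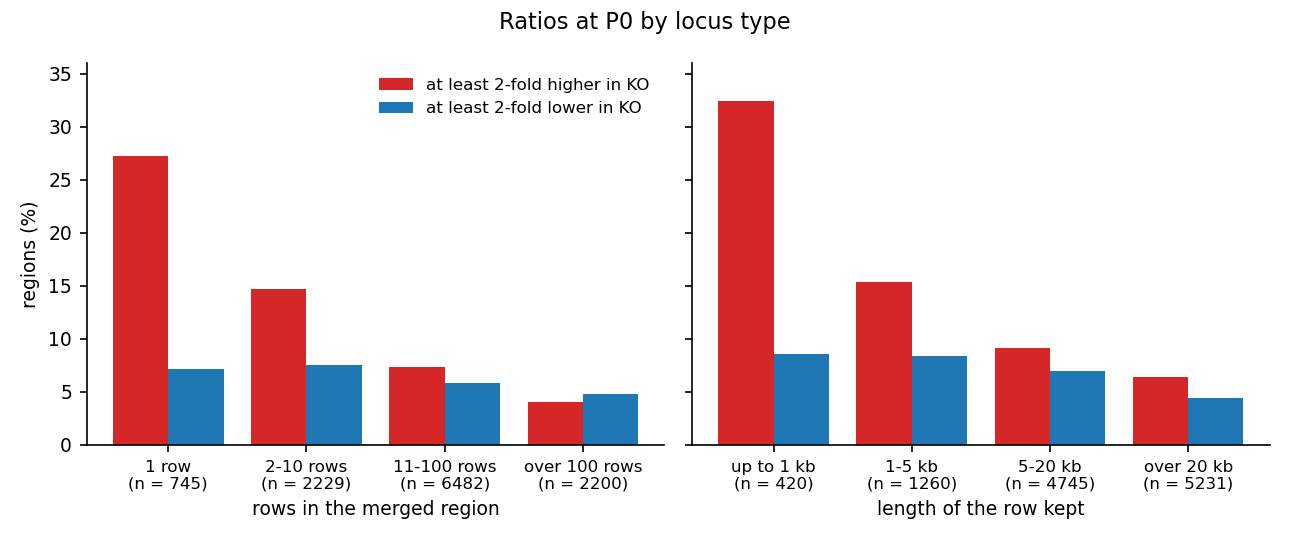
Bars show the percentage of regions at least 2-fold higher (red) or lower (blue) in KO at P0, by the number of overlapping intervals (rows) in the merged region (left) and by the length of the interval kept (right). The share higher goes from 27.2% for 1 row to 4.00% for over 100 rows and from 32.4% up to 1 kb to 6.37% over 20 kb, while the share lower is at most 8.57%.

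The level of a region in WT at P8, which the P0 ratio does not use, went with the ratio too. Of the 1071 regions under 1 CPM in WT P8, 31.1% passed 2-fold upward and 8.40% downward at P0. Of 1659 regions with 100 CPM and over in WT P8, 40 were higher (2.41%) and 55 lower (3.32%), which became 50 and 30 with TMM factors from the P0 pair alone.

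The share of higher regions ran from 3.72% on chromosome 11, with 30 of 806 regions, to 13.5% on chromosome 18, with 42 of 312. Lower regions ran from 3.70% on chromosome 3 to 11.7% on chromosome 7, with 91 of 781, and 9.37% on chromosome 5, with 79 of 843. On chromosomes 5, 7 and 11 lower regions outnumbered higher ones. With TMM factors from the P0 pair alone this held only on chromosome 7, with 67 higher and 72 lower, and with DESeq2 size factors the counts there were 68 and 68. The X chromosome had 23 of 187 regions higher and 11 lower, and its median log2 ratio of -0.14 was close to the -0.20 of the autosomes. At 500 reads and over the medians were 0.23 at 32 regions of the X chromosome and -0.20 at 3434 autosomal regions.

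**Figure D4:**
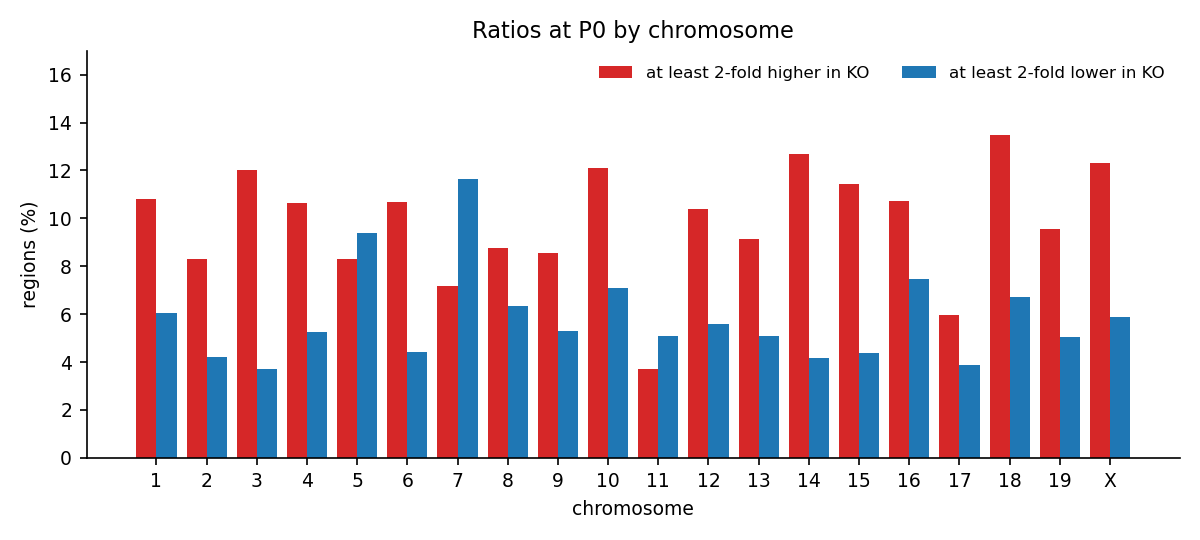
Bars show the percentage of regions at least 2-fold higher (red) or lower (blue) in KO at P0 on each chromosome, with scaffolds left out. Chromosome 7 has the largest share lower, 11.7%, and chromosome 18 the largest share higher, 13.5%.

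Near the first interval of a chromosome, where mouse chromosomes have their centromeres, the share of higher regions was close to that of all regions. Of the 67 regions within 500 kb of the first interval, 7 were higher (10.4%) and 11 lower (16.4%), beside 9.39% and 6.02% of all 11656 regions. Their median log2 ratio was 0.06. Summed reads there were 88291 in WT and 15004 in KO, a ratio of 0.236, but without the 3 regions at least 16-fold lower they were 22416 and 14642, a ratio of 0.909. From 500 kb to 5 Mb, 50 of 433 regions were higher (11.5%) and 17 lower (3.93%). In the last 5 Mb of chromosomes 63 of 697 were higher and 30 lower, shares of 9.04% and 4.30%. Of the 12 regions on scaffolds, 0 were higher and 6 were lower.

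In windows of 10 Mb the median log2 ratio ran from -0.64 to 1.07 over 247 windows with at least 10 regions, with quartiles at -0.27 and -0.01. The windows named here were picked as the extremes of these 247 and were not recounted with other scaling. Over whole chromosomes, lower regions fell from 91 to 72 on chromosome 7 with TMM factors from the P0 pair alone. On chromosome 5 they fell from 79 to 53. The lowest window was at 10 to 20 Mb of chromosome 7. There 25 of 70 regions were lower and 1 was higher, beside 6.02% and 9.39% of all 11656 regions. At P8, 20 of the 59 regions tested there were higher and 12 lower, close to the shares over all regions tested, 30.3% and 22.0%. Neighbours here follow each other among the regions described, at any distance, skipping regions under 100 P0 reads. The longest run of neighbouring lower regions found, 7 regions between 19419784 and 19611879, lies in this window and summed to 2853 (WT) and 995 CPM (KO). Its largest members, chr7:19475531-19491304 and chr7:19517393-19527618, were 2.58-fold and 4.46-fold lower at P0 and fell at P8 with log2 fold changes of -0.51 and -1.63 (edgeR adjusted p 0.0365 and 2.39e-06). Neighbouring chr7:19419784-19445041 was 2.84-fold lower at P0 but higher in KO at P8 (log2 fold change 2.01, edgeR adjusted p 1.97e-07). The outermost regions of this window were chr7:16192811-16199116, 4.74-fold lower (4.05 to 5.59), and chr7:13460927-13465872, 2.01-fold higher (1.51 to 2.69).

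The next lowest windows were on chromosome 5. At 130 to 140 Mb the median log2 ratio was -0.60. There 25 of 110 regions were lower and 1 was higher, beside 6.02% and 9.39% of all 11656 regions. The outermost regions of that window were chr5:131330848-131337180, 5.19-fold lower (3.48 to 8.00), and chr5:138879758-138886848, 2.78-fold higher (2.00 to 3.92). At 150 to 160 Mb the 12 regions had a median of -0.58, with 1 higher and 1 lower. The lower one, chr5:150003224-150007771, was 3.21-fold lower (2.83 to 3.66). The higher one, chr5:150221591-150241575, stood at 83.7 (WT) and 183 CPM (KO) at P0, 2.19-fold higher (1.98 to 2.43). Its P8 levels were 3.90 ± 0.252 (WT) and 70.4 ± 17.2 CPM (KO; SD, n = 2 each). The log2 fold change was 4.16 (edgeR adjusted p 1.40e-07).

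The highest windows were 10 to 20 Mb of chromosome 5 (median log2 ratio 1.07, 7 of 13 regions higher), the first 10 Mb of chromosome 15 (1.03, 16 of 30) and 10 to 20 Mb of chromosome 14 (0.78, 8 of 29). No region in these 3 windows was at least 2-fold lower. Of all 11656 regions, 9.39% were higher and 6.02% lower. On chromosome 15 the 16 higher regions included runs of 4, 3 and 4 neighbours, separated by regions that did not pass 2-fold, and 3 regions with no higher neighbour. The remaining ones opened a further run of 4, chr15:9276378-10444117, which crosses the end of the window. The region at chr15:6290086-6309706 stood at 19.4 (WT) and 156 CPM (KO), 8.02-fold higher (6.72 to 9.64), and rose at P8 with a log2 fold change of 2.56 (edgeR adjusted p 0.000298). The region at chr15:3983606-4003396 had 68.6 and 243 CPM, 3.54-fold higher (3.19 to 3.93), and the highest ratio of the window was 9.82 (7.33 to 13.4) at chr15:4836758-4846795, from 52 and 367 reads. Elsewhere in it chr15:8116171-8126177, the lowest, had a ratio whose interval included 1 (0.475 to 1.01). Of the 24 regions of this window tested at P8, 11 were higher and 3 lower, where 30.3% and 22.0% of all regions tested were. The highest regions of the other windows were chr5:15876045-15876379, 3.25-fold higher (2.30 to 4.65), and chr14:17188911-17196674, 2.61-fold higher (2.03 to 3.38). Their lowest were chr5:15858390-15869102 and chr14:14293380-14301149, 1.49-fold and 1.86-fold lower.

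Windows with few deposited intervals leaned towards higher ratios. In the 62 windows with fewest intervals (618 to 3057), 16.4% of the 1217 regions were higher and 5.75% lower, and the median of the window medians was 0.00 on the log2 scale. In the 62 windows with most intervals (6805 to 13033), 6.14% of the 4889 regions were higher and 5.58% lower, with a median of -0.26. The same order appeared at P8, with medians of the P8 log2 fold changes of 0.30 and 0.06. Gene density and base composition were not measured, and their part in the result was not tested.

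Runs of at least 3 neighbouring regions past 2-fold in the same direction numbered 34 for higher regions, with 109 regions in all, and 8 for lower regions, with 28 regions. They were picked for their ratios and are given as a description. The higher run at chr2:148179556-148258436, 3 regions over 78.9 kb, summed to 36.7 (WT) and 161 CPM (KO) at P0. Its P8 sums were 8.90 and 7.03 CPM (WT) and 399.5 and 397 CPM (KO). In the higher runs, 53 of 72 regions tested at P8 were higher and 2 lower, each in a run of its own. Of all 770 tested regions that were higher at P0, 67.1% were higher at P8 and 4.03% lower. The run at chr10:63279998-66539557 summed to 22.8 (WT) and 72.3 CPM (KO) at P0, but to 116 and 156 CPM (WT) against 3.75 and 7.24 CPM (KO) at P8. Of its 3 regions only 1 was tested at P8, and that region was called lower. The run at chr1:143757307-150352539 summed to 224 (WT) and 508 CPM (KO) at P0, but to 1245 and 902.7 CPM (WT) against 701 and 571 CPM (KO) at P8. Of its 5 regions 3 were tested at P8, where 1 was called lower and 0 higher. The higher run at chr9:122266741-122331911 summed to 24.4 and 71.6 CPM at P0, and to at most 2.07 CPM in each WT and 39.9 and 34.6 CPM in the KO libraries at P8. The lower run at chr8:55567006-55972470 summed to 186 (WT) and 35.2 CPM (KO) at P0, and had at most 4.53 CPM in each P8 library.

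Among the regions higher in KO at P0 that could be tested at P8, most were higher there as well. The P8 libraries are separate samples with replicates. Not tested at P8 were 325 of the 1095 higher regions and 1595 of all 11656. Of the 1095 higher regions, 770 had enough reads for the P8 test, and edgeR's quasi-likelihood test with Benjamini-Hochberg adjustment called 517 of these higher (67.1%) and 31 lower (4.03%). Of all 10061 regions tested, 30.3% were called higher and 22.0% lower. A region low in WT P8 can enter the test through its KO reads alone. Among regions with at least 200 reads over the 4 P8 libraries, 219 of 303 higher regions were called higher at P8 (72.3%) and 26 lower, against 31.0% and 30.0% of all 6611. This limit counts KO reads too, so a region can still pass it through KO reads alone. The median P8 log2 fold change of the regions at least 2-fold higher at P0 was 1.26.

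Regions lower in KO at P0 had no such common direction. Of 522 tested, 126 were lower at P8 (24.1%), 103 were higher (19.7%) and 293 were not called, against 30.3% higher and 22.0% lower of all 10061 regions tested. Among regions with at least 200 reads over the 4 P8 libraries, 95 of 299 were lower at P8 (31.8%) and 74 higher (24.7%). Of all 6611 such regions, 30.0% were lower and 31.0% higher. Of the 27 tested that were at least 4-fold lower at P0, 15 were lower at P8 and 1 was higher, and 7 of the 13 regions at least 16-fold lower are among the 15. Of the 495 tested that were between 2-fold and 4-fold lower, 111 were lower and 102 higher, with a median P8 log2 fold change of -0.10. With a median P0 log2 ratio of -0.20, the lower 2-fold limit lies nearer to the centre than the higher one. The lower set also depends on the scaling, with 702 regions here and 483 with TMM factors from the P0 pair alone. The P8 calls of that smaller set were not counted.

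The 27 regions with 5000 reads and over that were at least 2-fold higher at P0 were called higher in KO at P8, with log2 fold changes from 0.72 to 4.35 and edgeR adjusted p up to 0.00055. In that class 71.6% of all 211 regions were called higher at P8 and 12.8% lower. Examples from it were chosen after their values were seen. At chr13:54179736-54185437 levels were 179 (WT) and 707 CPM (KO) at P0, 3.95-fold higher (3.71 to 4.21), and the P8 libraries had 16 and 5 reads (WT) and 72 and 82 reads (KO). At chr6:28922544-28933116 there were 189 and 723 CPM at P0, and 36.6 and 39.2 against 384 and 347 CPM at P8. The region at chr11:117406631-117434244 had 395 and 880 CPM at P0, and 12.6 and 13.8 against 279 and 262 CPM at P8. In each of these the KO level was above the WT level at both ages, and WT levels were lower at P8 than at P0.

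Of the 38 abundant regions at least 2-fold lower at P0, 19 were called higher at P8, 10 lower (26.3%) and 9 neither, beside the 71.6% higher and 12.8% lower of the whole class. At chr5:148674800-148687323 levels were 1355 (WT) and 592 CPM (KO) at P0, 2.29-fold lower, but 51.3 and 46.9 CPM (WT) against 172 and 161 CPM (KO) at P8 (log2 fold change 1.76, edgeR adjusted p 4.33e-07). At chr10:79985503-80001860 there were 576 and 278 CPM at P0, and 227 and 182 against 651 and 614 CPM at P8. Lower at both ages were chr7:16610978-16624985, with 950.5 and 262 CPM at P0 and a P8 log2 fold change of -1.09 (edgeR adjusted p 0.00185), and chr5:136715341-136744222, with 1598 and 497 CPM at P0 and -0.93 at P8 (0.000446). The difference between the ages itself was not tested, and age goes with the cell preparation in these samples.

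**Figure D5:**
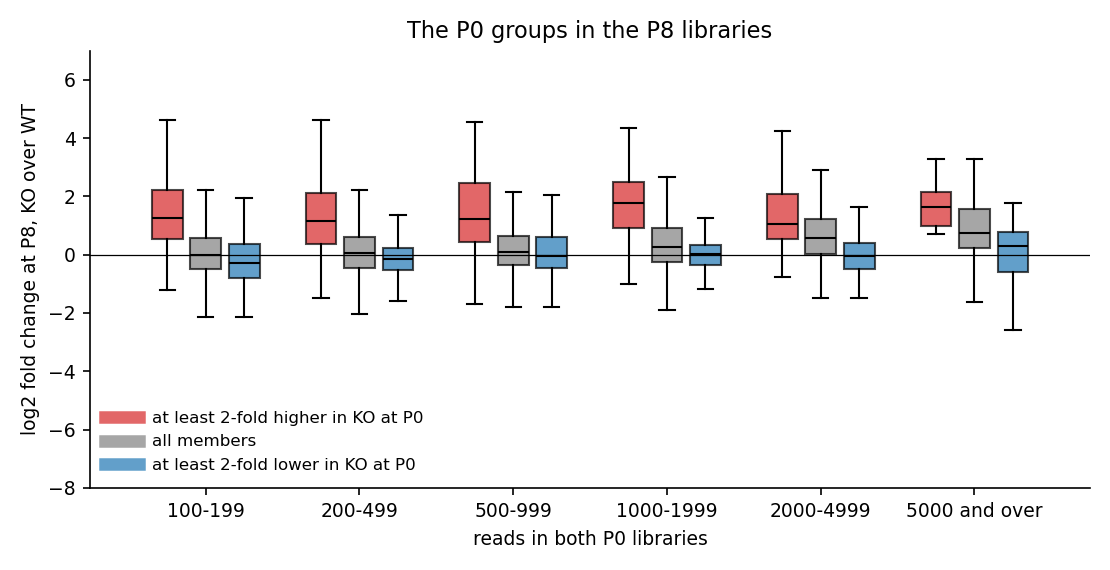
Boxes show the P8 log2 fold change, KO over WT, of regions at least 2-fold higher at P0 (red), all regions described (grey) and regions at least 2-fold lower at P0 (blue), by reads at P0. The line is the median, the box spans the quartiles and whiskers reach 1.5 times the box, with points beyond them left out. The red medians lie between 1.07 and 1.78, and the blue medians between -0.30 and 0.30.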

How the data were processed

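The authors deposited raw read counts per genomic interval for 6 libraries, with no normalization per the file headers. Per the submitters' processing notes, the tools were Bowtie 1.1.1, TopHat2 2.1.1, bedtools, cutadapt 1.13 and FastQC 0.10.1, on GRCm39. Not given in the sources used here are the counting step, where multiply matching reads were placed, and how intervals were defined. Starts were counted from 0 in the table and from 1 here.

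Overlapping intervals were merged and 1 was kept per merged region, by the largest sum over 6 libraries, then the shorter, then the lower start. P0 ratios carry conditional binomial intervals (scipy 1.17.1). At P8, KO and WT were compared over all representative intervals with edgeR 4.0.16 (R 4.3.3: filterByExpr, TMM, glmQLFit, glmQLFTest, two-sided), Benjamini-Hochberg adjustment and a threshold of 0.05. SEs are the absolute log2 fold change over the square root of F. On simulated P8 counts with 200 changed intervals, that fit found 72% of the 2-fold and 97% of the 4-fold changes, with 8 false calls over 17639 intervals. The changed intervals were drawn only from those with more reads, and all intervals were given the same spread between libraries. These figures therefore do not cover changes at low counts or a spread that varies between intervals. Whether replicates were separate animals is not in the labels, so the p-values rest on a spread between libraries that may be technical.

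Named regions are the 10 with most reads, the 5 highest and 5 lowest ratios with at least 1000 reads and with fewer, and the 3 highest and 3 lowest windows with their outermost regions. Members, rules and classes were chosen with earlier results of these data known. Planned gene classes and lists, and sequences, were not used, since the annotation is of another build. The deposited log2 CPM table holds P8 libraries only and was not used here.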

Additional observations from a re-analysis of the deposited data

Results flagged for a closer look

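Among the regions chosen by the naming rule, 2 passed 2-fold at P0 and had both P8 KO libraries on the other side of both P8 WT libraries. The difference between the ages was not tested. Regions picked in other ways, such as chr5:148674800-148687323, also went opposite ways. At chr3:86054828-86057043 the log2 ratio of KO over WT at P0 was 2.84, from 168 reads in WT and 868 in KO. At P8 both KO libraries, with 91 and 89 reads, lay below both WT libraries, with 229 and 209 (edgeR adjusted p 0.00012). At chr5:131330848-131337180 the log2 ratio at P0 was -2.35, from 202 and 28 reads, while at P8 the KO libraries had 14 and 11 reads and the WT libraries 8 and 7 (edgeR adjusted p 0.0636, no call). Below 2-fold at P0, chr14:14293380-14301149 was 1.86-fold lower, while its P8 levels were 15.9 and 21.3 CPM (WT) and 23.6 and 27.4 CPM (KO), also without a call.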

How the results depend on the processing

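Against the 1095 higher and 702 lower regions at P0, DESeq2 size factors gave 465 lower regions, a limit of 50 reads 1179 lower, and a limit of 500 reads 410 higher and 245 lower, from 16537 and 3472 regions. Keeping the shortest interval with at least 10% of the largest sum left 5446 regions, 871 higher (15.99%, against 9.39%) and 352 lower (6.46%, against 6.02%). The median log2 ratio became -0.0898 with TMM over the P0 pair, -0.0750 with DESeq2 size factors and -0.00878 with the shortest interval. The difference in medians between regions of 5000 reads and over and the lowest class, 0.41, was 0.51 at 500 reads and 0.605 with the shortest interval. That between the X chromosome and autosomes, 0.06, was 0.43 and 0.13 under the same settings. The difference between single intervals and regions of over 100 intervals, 0.59, was 0.52 at 50 reads and 0.86 at 500 reads. The cause of these shifts was not tested. At P8, DESeq2 called 2361 higher and 2015 lower, against 4227 and 3875, and edgeR without a filter on low counts called 2139 lower. With the replicate number as a block, edgeR called 4607 higher and 4384 lower. The labels give all libraries 1 batch and tie the numbers to no shared animal, and deviations of same-numbered samples correlated at 0.13. Leaving out 1 P8 library gave 3098 to 3941 higher and 2791 to 3693 lower, where a lone library is assumed to vary like the other group. The P8 log2 fold change of chr10:83212616-83234021, which passed no threshold, became -0.0047 with total reads. The P8 call at chr6:47714103-47767489 was lost under 5 of its alternatives.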
